A study of Arabidopsis thaliana with 12 samples.

Results

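The response to abscisic acid (ABA) under supplemental far-red light was followed in the aerial parts of 10-day-old seedlings of Arabidopsis thaliana. It rests on 6 of the 12 arrays of the series: 3 of plants given white light with added far-red light, called FR, and 3 of plants given the same light with ABA, called FRABA. All plants had grown for 9 days in continuous white light, labelled as 80 mmol/m2 per second, and were then treated for 24 hours. The labels give the added far-red light as 6 mmol/m2 per second and the ABA as 1 mM; these prefixes could not be checked. FR plants had a mock treatment without ABA, and neither accession nor genotype is named in the labels. The same ABA comparison in white light alone, WLABA against WL with 3 arrays each, is set beside the far-red comparison. Arrays of 1 group are biological replicates by their labels, so the spread behind each p-value is that between such replicates.

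ABA is the hormone that plants make when water is short and when seeds mature. It binds PYR/PYL receptors, which then hold back PP2C phosphatases, so that SnRK2 kinases become active and phosphorylate transcription factors that bind ABA-responsive promoter elements. In vegetative shoots ABA is known for closing stomata, for switching on genes of protective hydrophilic proteins and for slowing growth. Far-red light reflected by neighbours inactivates phytochrome and starts the shade response, in which auxin made by YUCCA enzymes drives elongation.

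All values are RMA log2 levels per probe set, and differences are FRABA minus FR in log2 units with their standard error (SE), tested with limma over all 22746 probe sets. A probe set is called when its Benjamini-Hochberg adjusted p was below 0.05. The label of aerial tissue could be checked with few markers: RCA, the Rubisco activase of leaves, was detected on all 3 arrays of both groups, and the root-hair genes EXPA7, EXPA18 and GH9C1 were detected on 0 of the 6 arrays, as was the meristem gene CLV3; no vascular marker had a listed probe set. Array medians were 5.531 to 5.622 in FR and 5.525 to 5.577 in FRABA, the share of probe sets detected was 61.6% to 67.2% and 61.1% to 63.6%, and the 3′ over 5′ signal of GAPDH, a sign of RNA integrity, was 0.36 to 0.88 and 0.65 to 0.73 log2 units. FR replicate 3 had the highest detected share and the lowest GAPDH value. Exact two-sided permutation tests of these measures gave p = 0.6, 0.7 and 0.8, where the smallest that 3 against 3 arrays allow is 0.1. None of the 6 measured reference genes was called, against 10.3% of all probe sets, and they ranged from -0.08 for AT4G34270 to 0.19 for GAPC2 (adjusted p = 0.137).

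ABA moved about as many transcripts down as up under far-red light, and the called falls were smaller in size than the called rises. Of the 22746 probe sets, 2352 (10.3%) were called, 1151 (5.06%) higher and 1201 (5.28%) lower, and 152 (0.668%) were called with a change of at least 2-fold. The median size of a fall was 0.42 log2 units (quartiles 0.35 and 0.52), against 0.51 for a rise (0.39 and 0.69). Of the falls, 850 (70.8%) were under 0.5 log2 units and 42 (3.5%) reached 1, whereas 559 rises (48.6%) were under 0.5 and 110 (9.56%) reached 1. Detection on all 3 FR arrays was found for 1090 falls (90.8%), 924 rises (80.3%) and 59.1% of all probe sets; a transcript must be measurable in FR to be seen to fall, so the direction of the call enters these shares. A switch from absent on every FR array to present on every FRABA array was seen for 12 rises, and the reverse for 18 falls. The largest differences lay in probe sets without a listed gene, with a rise of 6.38 and a fall of 2.71.

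**Figure D1:**
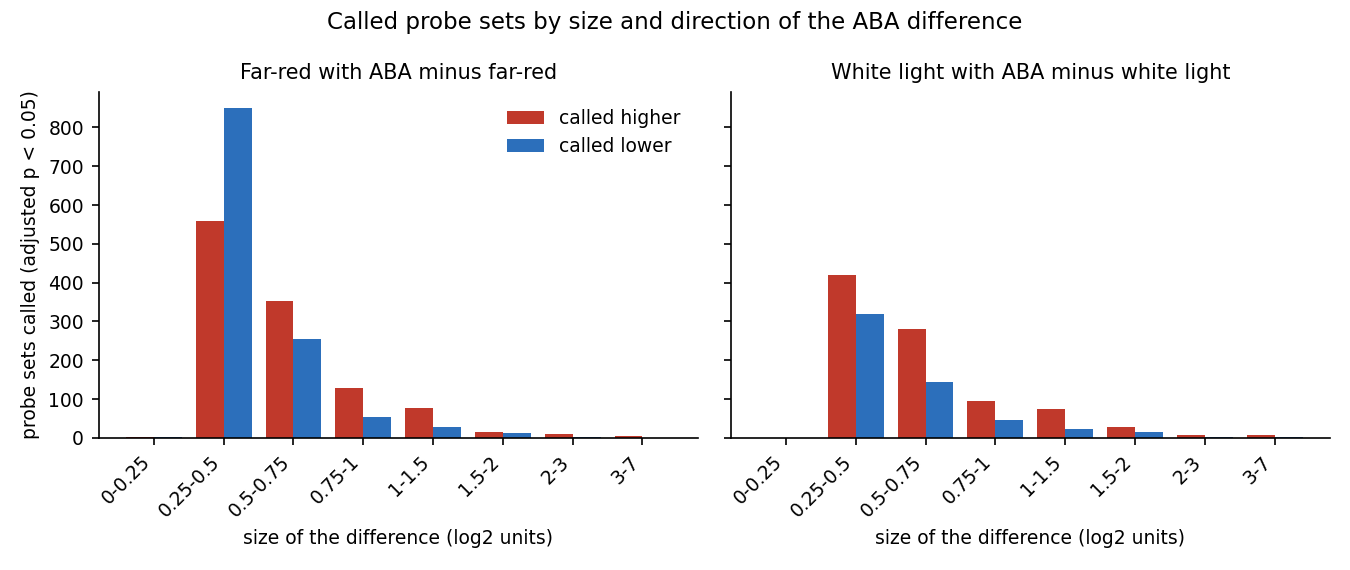
Number of called probe sets (vertical axis) by size of the ABA difference in log2 units (horizontal axis), with rises in red and falls in blue, under far-red light (left) and in white light (right). Under far-red light the 850 falls of less than 0.5 log2 units outnumber the 559 rises of that size, and above 0.5 the rises are more numerous.

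The balance of rises and falls depended on scaling. Leaving out an FR or FRABA array lowered the number of calls and moved the balance to more rises than falls. With each array centred on its median, 1321 probe sets were called higher and 896 lower, so that rises made up 59.6% of the calls in place of 48.9%; quantile normalization gave 1231 and 1174. Leaving out FR replicate 1 brought the calls to 1518 (765 higher, 753 lower) and FR replicate 2 to 1529 (833 higher, 696 lower). Without FRABA replicate 2 there were 1546 (811 higher, 735 lower), and without FRABA replicate 1 there were 926 rises and 764 falls. In these bulk samples, fewer cells of a type and less RNA per cell cannot be told apart.

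The falls were more numerous under far-red light than the 549 (2.41%) in white light. There 914 probe sets (4.02%) were higher, 1463 (6.43%) were called in all and 0.703% were called with at least a 2-fold change. The white-light count of all calls was 908 without WLABA replicate 1 and 949 without WLABA replicate 2. Array medians were 5.454 to 5.503 in WL and 5.521 to 5.557 in WLABA, so they were higher with ABA. Detected shares were 60.6% to 63.0% and 64.3% to 65.7%. Under far-red light the medians averaged 5.574 in FR and 5.547 in FRABA. Both counts of falls use the deposited scaling. Centring left 896 far-red falls, and the white-light falls after centring are not given here. Yet 1110 of the 1201 far-red falls (92.4%) had the same sign in white light, with a median of -0.24 there against -0.42 under far-red, and 339 (28.2%) were also called lower. The 1201 were chosen on the far-red arrays, so these shares only describe them. Of the 549 falls in white light, 339 (61.7%) were called lower under far-red light, where their median was -0.38 against -0.47. Of the 1151 rises, 1122 (97.5%) had the same sign in white light, with a median of 0.39 there against 0.51, and 609 (52.9%) were also called higher. Over all probe sets, 65.6% had the same sign in both lights. Rises and falls were not tested against each other. Across all probe sets the 2 differences had a Pearson r of 0.743, which is a correlation across genes and not across replicates. The test of the difference between lights, the interaction, called 0 probe sets. Its lowest adjusted p was 0.4 and 1465 probe sets (6.44%) had an unadjusted p below 0.05. With a trended robust variance 2 were called, without WL replicate 3 it was 1 and without FR replicate 3 it was 2. No gene is therefore shown here to respond to ABA differently under far-red light, and the larger number of falls is a count, not a tested difference.

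The genes named next are, of the called probe sets of a single listed gene whose groups did not overlap, the 15 with the largest rise and the 15 with the largest fall. Many carry only a locus tag in the annotation used, and no function is given for those. Non-overlap of FR and FRABA was part of this choice, so it adds no support for these genes. It was also seen in 1137 of the 1151 called rises and 1184 of the 1201 called falls. Over all probe sets, the FRABA arrays were all higher in 12.3% and all lower in 15.4%. Among probe sets of a single listed gene, 590 (4.37%) rose and 663 (4.91%) fell, 9.27% in all.

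The largest rise with a listed gene was that of AT2G37870. It read 5.03, 5.02 and 5.03 on the FR arrays and 8.98, 9.04 and 8.70 with ABA, a rise of 3.88 ± 0.13 (SE) log2 units or 14.7-fold (adjusted p = 3.28e-11). The FR arrays were nearly equal and lay far below all FRABA arrays. AT4G33550 stood at 5.99, 5.81 and 5.99 without and at 8.91, 9.05 and 9.17 with ABA (3.12 ± 0.11, 8.67-fold, adjusted p = 4e-11). AT3G53980 went from 5.81, 6.19 and 6.56 to 9.11, 9.11 and 9.31 (2.99 ± 0.16, 7.95-fold, adjusted p = 1.19e-08). The groups were separate in both genes. Further rises of locus-tag genes were those of AT5G22460 (2.14), AT1G09500 (2.02), AT1G73040 (1.83), AT1G62510 (1.80) and AT1G73480 (1.70).

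Protective proteins that plant cells make as they lose water formed a rising group. Of 18 measured genes of late embryogenesis abundant (LEA) proteins, dehydrins, cold-regulated proteins and other ABA markers, 9 rose and 0 fell, with a median difference of 0.54 over all 18, against shares of 5.06% and 5.28% and a median of -0.015 over all probe sets. LTI30, a dehydrin, read 4.37, 4.68 and 4.75 in FR and 7.51, 7.35 and 8.07 in FRABA, a rise of 3.04 ± 0.27 (8.23-fold, adjusted p = 5.15e-06). COR15A, a chloroplast protein that guards membranes during freezing and drying, went from 7.23, 7.80 and 7.94 to 10.54, 10.82 and 10.38 (2.92 ± 0.20, 7.59-fold, adjusted p = 4.49e-07). Every FRABA array lay above every FR array for both. COR15B, its close relative, rose by 1.39 and COR47, another dehydrin, by 0.79.

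Some of this group were not detected without ABA. LEA4-5, a LEA protein, was detected on 0 of 3 FR arrays (4.55, 4.36 and 4.34) and on 2 of 3 with ABA (6.46, 5.79 and 6.16), and was at least 3.3-fold higher (adjusted p = 2.6e-05). HIS1-3, a linker histone known to be induced by drought, read 3.12, 3.51 and 3.14 in FR, with 0 of 3 arrays detected, and 4.86, 4.74 and 4.98 with ABA, at least 3.04-fold higher (adjusted p = 1.57e-05). It was the only one of 7 measured histone genes to be called. AT3G15670 was called higher (0.68, adjusted p = 0.00743) while not detected on any array of either group, so no fold is given. AT2G44060, also known as LEA26, rose by 0.39, with an adjusted p of 0.0512 without FRABA replicate 1 and 0.0569 without FRABA replicate 2.

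AT3G02480, included in the group by its locus tag, had unlike values in the 2 lights. Its FR values of 6.77, 6.82 and 7.47 and FRABA values of 7.93, 7.79 and 8.67 gave a rise of 1.11 ± 0.32 (2.15-fold, adjusted p = 0.0384), against a difference of 3.10 in white light. The interaction was -2.00 with an unadjusted p of 0.000487, which did not pass adjustment. The far-red call was lost without WLABA replicate 3 (adjusted p = 0.0512), FR replicate 1 (0.131), FR replicate 2 (0.128), FRABA replicate 1 (0.0613) and FRABA replicate 3 (0.149). The 9 members not called ranged from -0.26 for AT2G46140 to 0.73 for AT3G17520 (adjusted p = 0.0578).

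**Figure D2:**
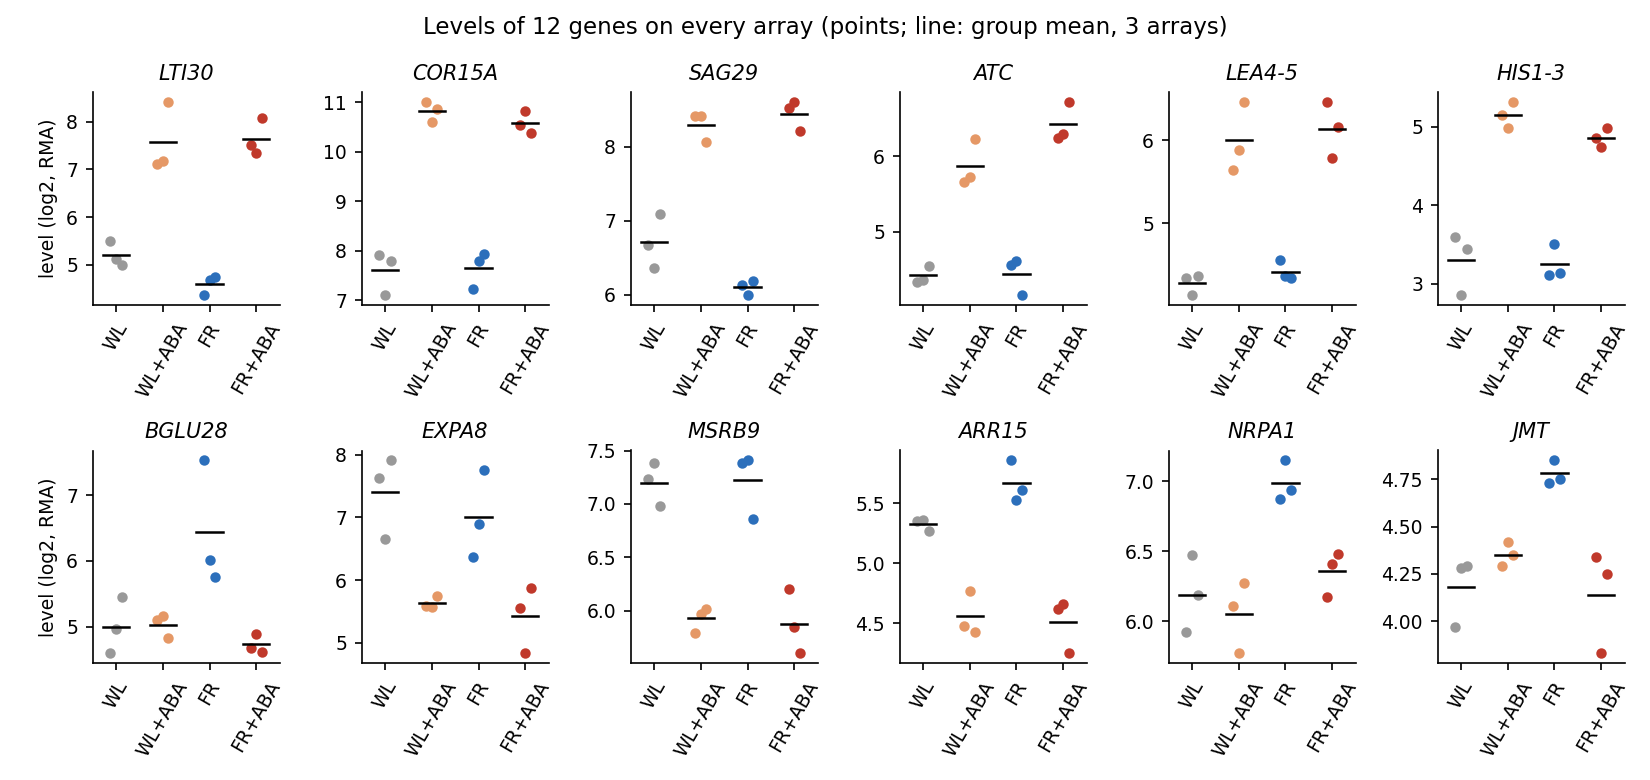
Levels in log2 units (vertical axes, scaled per gene) of 6 genes that rose (top) and 6 that fell (bottom) with ABA under far-red light, on all 12 arrays by group; each point is 1 array and each line a group mean of 3. FR and FRABA arrays do not overlap in any of the 12 genes, and in BGLU28, ARR15, NRPA1 and JMT the FR arrays lie above all others.

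Some sugar transporter and starch genes rose, beside 5.06% of all probe sets called higher. SAG29, a senescence-associated member of the SWEET family of sugar transporters, read 6.13, 6.00 and 6.19 in FR and 8.53, 8.61 and 8.21 in FRABA (2.34 ± 0.16, 5.06-fold, adjusted p = 3.39e-07). SWEET13, a sucrose exporter, rose by 0.96 (1.95-fold), from 4.45, 4.58 and 4.82 to 5.53, 5.70 and 5.51. Of 16 measured SWEET genes 3 rose and 0 fell; the third, SWEET4 (0.74), was not called without FR replicate 2 (adjusted p = 0.0806), FRABA replicate 1 (0.0727) or FRABA replicate 2 (0.0557). Starch enzymes gave 3 rises and 0 falls among 7 measured. APL3, a large subunit of ADP-glucose pyrophosphorylase, the first committed step of starch synthesis, read 6.72, 6.74 and 6.72 against 7.54, 7.77 and 7.71 (0.95 ± 0.11, 1.93-fold, adjusted p = 6.39e-05). AT4G24450, annotated as a water dikinase of glucan, rose by 0.87. The third, SBE2.2, a starch branching enzyme (0.27, adjusted p = 0.0414), was not called with only the 6 arrays compared (0.0704), nor without WLABA replicate 2 (0.0581), FR replicate 1 (0.0895), FR replicate 2 (0.123), FR replicate 3 (0.0748), FRABA replicate 1 (0.0589), FRABA replicate 2 (0.144) or FRABA replicate 3 (0.0862). For APL3 and AT4G24450 the white-light rise was larger in value, at 1.48 and 1.07.

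Flavonoid and anthocyanin pathway genes made up the other group in which 50.0% of the members rose. Of 8 measured, 4 rose and 0 fell, against 5.06% higher and 5.28% lower of all probe sets, and the median was 0.46. Not called were the glycosyltransferase genes UGT78D2 (0.39), UGT78D1 (0.16), UGT78D3 (0.04) and UGT80B1 (-0.21). DFR, dihydroflavonol reductase, went from 9.50, 9.59 and 9.07 to 10.24, 10.50 and 10.07 (0.88 ± 0.14, 1.84-fold, adjusted p = 0.00125). UF3GT, a glycosyltransferase that decorates anthocyanins, rose from 8.30, 8.25 and 7.77 to 9.05, 9.35 and 8.67 (0.92 ± 0.17, adjusted p = 0.00285), and AT4G14090 by 0.87. In each the groups did not overlap, and FR replicate 3 was the lowest FR array. AT5MAT, which adds malonate to anthocyanins, rose by 0.53, and its adjusted p was 0.0633 without FR replicate 1, 0.127 without FR replicate 3, 0.0924 without FRABA replicate 1 and 0.152 without FRABA replicate 2. In white light these 4 genes differed by 1.51, 1.62, 1.56 and 1.30 in that order, with unadjusted interaction p-values of 0.00678, 0.00996, 0.0114 and 0.00233, none of which passed adjustment.

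Some genes for taking apart amino acids and proteins rose, beside 5.06% of all probe sets called higher and 5.28% called lower. MGL, methionine gamma-lyase, which splits methionine, read 5.48, 5.73 and 5.32 without and 6.50, 6.23 and 6.66 with ABA (0.95 ± 0.13, 1.94-fold, adjusted p = 0.000348). ALDH7B4, a stress-induced aldehyde dehydrogenase, rose by 1.01 (2.01-fold) and AT4G33150, annotated as the bifunctional lysine-breakdown enzyme LKR/SDH, by 0.65. In all, 4 of 16 measured genes on the list of amino acid catabolism and proline rose and 1, AT5G09300, fell by 0.55. That list also holds members of the aldehyde dehydrogenase family, such as ALDH2C4 (-0.18) and ALDH22A1 (0.04). Their part in amino acid breakdown was not checked. The fourth rise, ALDH10A8 (0.33), was lost in 9 of 20 alternative fits, with an adjusted p of 0.143 without FR replicate 2 as the highest. Autophagy genes gave 3 rises and 0 falls of 11, all 11 differences being above 0. ATG8H and APG8A, which encode the ubiquitin-like protein that coats autophagosomes, rose by 0.60 ± 0.10 and 0.56 ± 0.10, and ATG8F by 0.32 (adjusted p = 0.105 without FR replicate 2, 0.0699 without FRABA replicate 1 and 0.0707 without FRABA replicate 2). BETA-VPE, a vacuolar processing protease, rose from 5.13, 4.99 and 5.22 to 6.36, 6.54 and 6.67 (1.41 ± 0.10, 2.66-fold, adjusted p = 4.13e-07), and CP1, a cysteine protease, fell by 0.85. They belong to 42 measured proteases and vacuolar enzymes, of which 3 rose and 2 fell (11.9%), near the 10.3% of all probe sets. The 3 rises became 1 without FR replicate 1 or FR replicate 2, and the 2 falls 1 without FR replicate 3 or FRABA replicate 2.

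ATC, a relative of the floral regulators FT and TFL1, was detected on 0 of 3 FR arrays (4.56, 4.61 and 4.16) and all 3 FRABA arrays (6.24, 6.29 and 6.72), at least 3.92-fold higher (adjusted p = 1.71e-06). PRX52, a secreted peroxidase, was likewise detected on 0 and 3 arrays, and read 3.35, 3.77 and 3.59 against 4.91, 5.70 and 4.80, at least 2.96-fold higher. PYE, a regulator of iron-deficiency genes, rose by 0.88 ± 0.13. It was 1 of 2 rises among 7 iron-response bHLH factors, a list added after values were seen, beside 5.06% of all probe sets. The other, BHLH101, was not called with only the 6 arrays compared or with a trended robust variance. Its call was also lost without FR replicate 1, FR replicate 2 or FRABA replicate 3. Among 30 nutrient and ion transporters 4 rose and 0 fell, the largest being AT1G68570, annotated as NPF3.1 of the nitrate and peptide transporter family (0.87 ± 0.11), and among 14 glutathione transferases 4 rose and 0 fell, with GSTL3 at 0.44 ± 0.09. The transferase count was 2 without FR replicate 1 or FR replicate 2 and 1, GSTL3 alone, without FRABA replicate 2. Of the transporters 13.3% were called, all higher, beside 5.06% of all probe sets called higher and 10.3% called either way. GTR1 (0.33) was not called without FR replicate 1 (adjusted p = 0.0995), FRABA replicate 2 (0.0894) or FRABA replicate 3 (0.0593).

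The largest falls with a listed gene were in part those of genes that were no longer detected with ABA. AT4G11290 read 5.11, 5.02 and 5.17 in FR and 3.28, 3.31 and 3.22 in FRABA, with 3 and 0 arrays detected, at least 3.55-fold lower (-1.83 ± 0.13, adjusted p = 4.49e-07). AT2G47880 went from 5.70, 5.52 and 6.48 to 4.02, 4.09 and 4.43, at least 3.29-fold lower (adjusted p = 6.65e-05). ARR15, a type-A response regulator that rises with cytokinin and damps its signal, read 5.86, 5.53 and 5.61 against 4.62, 4.66 and 4.25, with 3 and 0 arrays detected, at least 2.23-fold lower (-1.16 ± 0.12, adjusted p = 2.6e-05). It was the only called one of 6 measured response regulators, beside 5.28% of all probe sets called lower. Without FR replicate 2 there were 2. In white light 2 of the 6 were called lower. AT5G28630 was detected on 2 FR arrays and 0 FRABA arrays and was at least 2.38-fold lower.

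Other large falls kept their transcripts above detection. AT5G20790 fell from 9.44, 9.17 and 9.04 to 7.57, 7.87 and 7.60 (-1.54 ± 0.12, 2.91-fold, adjusted p = 9.74e-07). AT4G21870 (-1.49), AT3G16530 (-1.50) and AT3G16670 (-1.29) also had high FR levels, with every FRABA array below every FR array. EXPA8, an expansin that loosens cell walls, read 6.36, 6.90 and 7.75 without and 5.55, 4.83 and 5.88 with ABA (-1.58 ± 0.33, 2.99-fold, adjusted p = 0.00691), with a wide spread in both groups. MSRB9, which repairs oxidised methionine in proteins, went from 7.38, 7.41 and 6.86 to 6.20, 5.85 and 5.60 (-1.33 ± 0.16, 2.52-fold, adjusted p = 9.75e-05). A second such reductase, MSRB6, fell by 0.52. These were the 2 called of 5 measured, against 5.28% of all probe sets called lower. All 5 had values below 0, with a median of -0.12, and the list was added after values were seen. AT5G62360 (-1.33), AT1G75960 (-1.31), AT5G26280 (-1.20) and AT2G41990 (-1.08) completed the 15. With a trended robust variance EXPA8 (adjusted p = 0.0559) and AT5G26280 (0.0642) were not called.

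BGLU28, a beta-glucosidase, had another value in white light. It read 7.53, 6.01 and 5.76 on the FR arrays and 4.68, 4.88 and 4.62 with ABA (-1.71 ± 0.33, 3.27-fold, adjusted p = 0.0037), against a difference of 0.02 in white light. FR replicate 1 lay well above the other FR arrays, and all FR arrays lay above all FRABA arrays. The interaction had an unadjusted p of 0.00185 and an adjusted p of 0.653.

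Most measured genes for ribosome assembly fell. Ribosome assembly takes place mainly in the nucleolus, where rRNA is copied by RNA polymerase I, cut, folded and joined with proteins. Of 12 measured assembly factors 8 fell and 0 rose, all 12 differences were below 0, and the median was -0.39, against 5.28% and a median of -0.015 for all probe sets; the list was extended after values were seen. In white light 0 were called and the median was -0.23. AT3G09720, annotated as the RNA helicase RH57, read 5.91, 5.60 and 5.66 in FR and 5.32, 5.08 and 5.01 in FRABA (-0.59 ± 0.12, 1.5-fold, adjusted p = 0.00617). AT3G55510, annotated as REBELOTE, went from 7.28, 7.37 and 7.37 to 6.87, 6.80 and 6.61 (-0.58 ± 0.11, adjusted p = 0.00282). AT5G14520, annotated as PESCADILLO, a factor of the large subunit, fell from 9.65, 9.76 and 9.63 to 9.19, 9.17 and 9.24 (-0.48 ± 0.10, adjusted p = 0.00487). The FR and FRABA arrays did not overlap in any of these.

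IMP4, which acts in early cuts that free the small-subunit rRNA, fell by 0.47 ± 0.09, and AT5G41190, annotated as NOB1, known in yeast for the last cut of that rRNA, by 0.46 ± 0.09. AT5G52820, annotated as NOTCHLESS, a factor of large-subunit maturation, fell by 0.41 and PRH75, a nucleolar RNA helicase, by 0.37. The eighth, PCN (-0.34), had an adjusted p of 0.0939 without FR replicate 2, 0.118 without FR replicate 3, 0.112 without FRABA replicate 1, 0.0595 without FRABA replicate 2 and 0.0734 without FRABA replicate 3. The 4 members not called were RRP41 (-0.32, adjusted p = 0.0604), RRP41L (-0.25), DIM1B (-0.14) and DIM1A (-0.13).

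Subunits of the nuclear RNA polymerases, a list added after values were seen, gave 3 falls and 0 rises among 12. Of all probe sets 5.28% were called lower. NRPA1, the largest subunit of polymerase I, read 6.87, 7.15 and 6.94 in FR and 6.17, 6.41 and 6.48 in FRABA (-0.63 ± 0.15, 1.55-fold, adjusted p = 0.0118). NRPA2, the second largest, went from 7.17, 7.55 and 7.22 to 6.54, 6.88 and 6.97 (-0.51 ± 0.15, adjusted p = 0.0429), and NRPC2, of polymerase III, which makes tRNA and 5S rRNA, from 6.95, 7.12 and 6.85 to 6.55, 6.36 and 6.56 (-0.49 ± 0.10, adjusted p = 0.00536). All FR arrays lay above all FRABA arrays. The count was 5 without WL replicate 2 and 1 without FR replicate 2, where NRPA1 had an adjusted p of 0.0581 and NRPA2 of 0.179; without FRABA replicate 1 they had 0.0558 and 0.172. NRPA2 was also not called without WL replicate 3 (0.0516), WLABA replicate 2 (0.0583), FR replicate 1 (0.0563), FR replicate 3 (0.0618) and FRABA replicate 2 (0.0729). The count was 2 without WLABA replicate 2, FR replicate 1, FRABA replicate 1 and FRABA replicate 2. In white light none of the 12 was called and the median was -0.13, against -0.31 under far-red light.

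**Figure D3:**
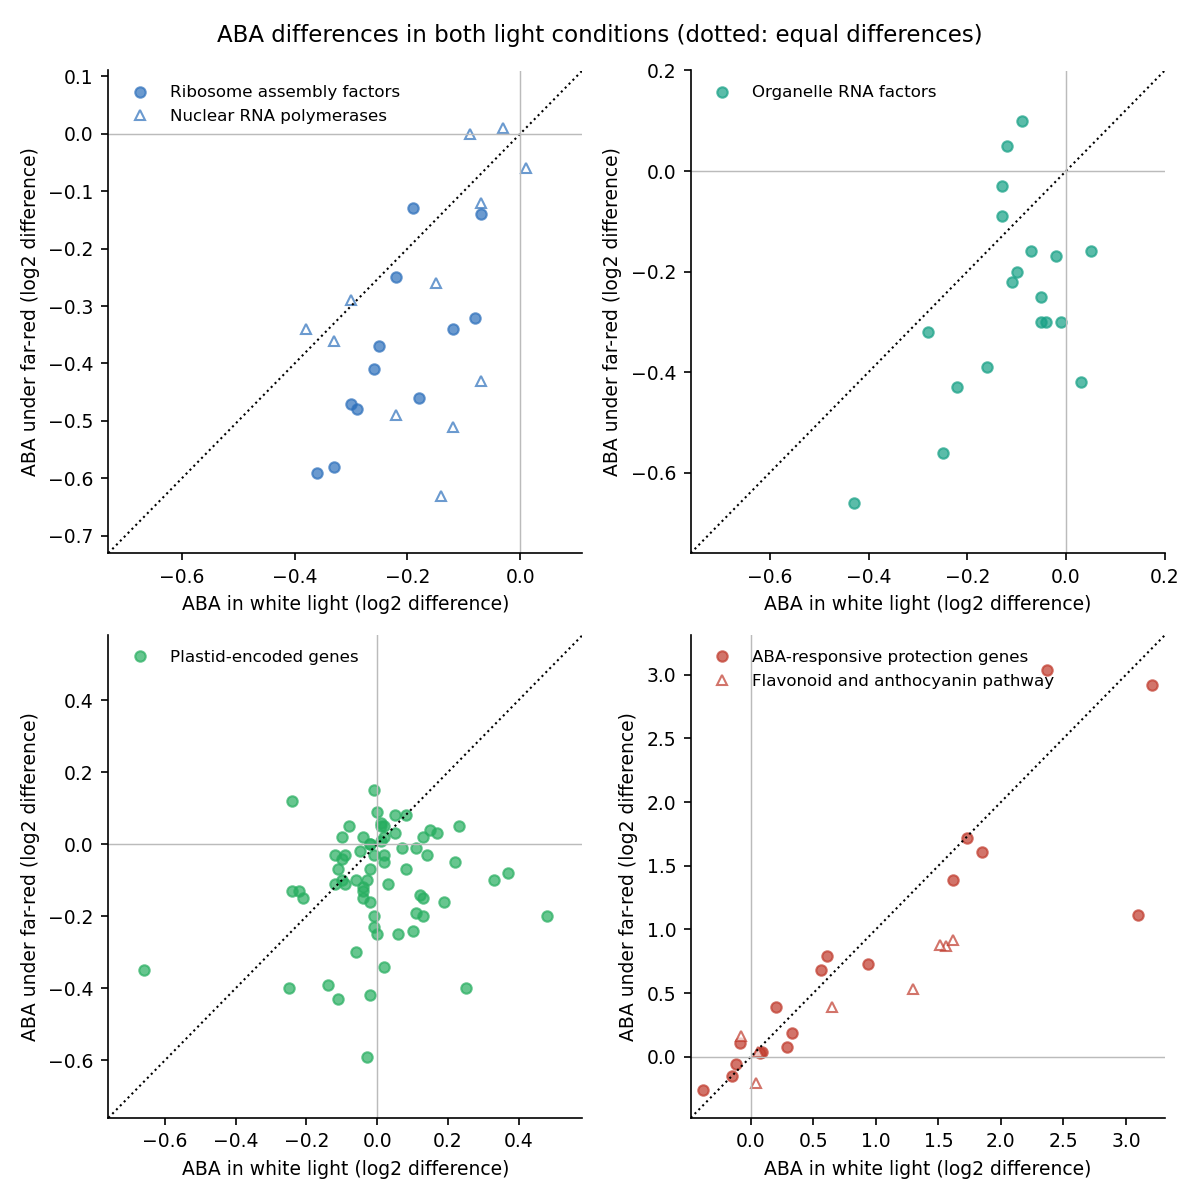
ABA difference under far-red light (vertical axes) against that in white light (horizontal axes), both in log2 units, for the measured members of 6 gene groups; each point is a gene and the dotted line marks equal differences. Ribosome assembly factors lie mostly below the line, at medians of -0.39 and -0.23, and the anthocyanin genes that rose lie below it on the positive side.

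Genes for proteins that cut, edit and splice RNA in chloroplasts and mitochondria fell in part. Of 19 measured organelle RNA factors 8 fell and 0 rose, with a median of -0.25. Over all probe sets 5.28% were called lower and the median was -0.015. This list too was extended after values were seen. OTP81, a pentatricopeptide protein of chloroplast RNA editing, read 6.89, 7.07 and 6.96 without and 6.28, 6.25 and 6.40 with ABA (-0.66 ± 0.11, 1.58-fold, adjusted p = 0.00167). PPR596, a mitochondrial pentatricopeptide protein, fell from 8.34, 8.40 and 8.28 to 7.60, 7.77 and 7.98 (-0.56 ± 0.11, adjusted p = 0.00487), and RAP, which acts in maturation of chloroplast 16S rRNA, by 0.39 ± 0.08. Groups were separate in each of them. The count of 8 became 3 without FR replicate 1 and 5 without FR replicate 2, FRABA replicate 1 or FRABA replicate 3.

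The plastid genome itself showed 6 falls and 0 rises among 69 measured genes. The 8.7% called, all lower, stands beside 5.28% of all probe sets called lower and 10.3% called either way. Of the 69 differences 49 were below 0, with a median of -0.08 against -0.015 for all probe sets. The falls lay in the genes for the plastid's own RNA polymerase, where 3 of 4 fell (rpoC2, rpoB and rpoC1, median of the 4 -0.38), and for its ribosome, where 3 of 15 fell (rpl20, rps15 and rps16). No gene of photosystem I, photosystem II, cytochrome b6f, ATP synthase or the NDH complex was called, with class medians from -0.14 to -0.02. The transcript of rpl20, a gene for a protein of the large ribosomal subunit, gave 7.85, 7.88 and 7.88 in FR and 7.20, 7.31 and 7.32 in FRABA. Its difference was -0.59 ± 0.11 (1.51-fold, adjusted p = 0.00345), all FRABA arrays being lower, and -0.03 in white light. Each of the other plastid calls was lost in several of the fits that left out 1 array. The count was 1 without FR replicate 1 or FRABA replicate 1 and 2 without FR replicate 2, FR replicate 3 or FRABA replicate 2. It was 6 without FRABA replicate 3, where rpoC2 and rps16 were not called. RNA was copied from an oligo-dT primer, and plastid transcripts carry poly(A) tails only in part. Among 11 measured nuclear photosynthesis genes, 0 were called and the values ran from -0.12 to 0.21.

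**Figure D4:**
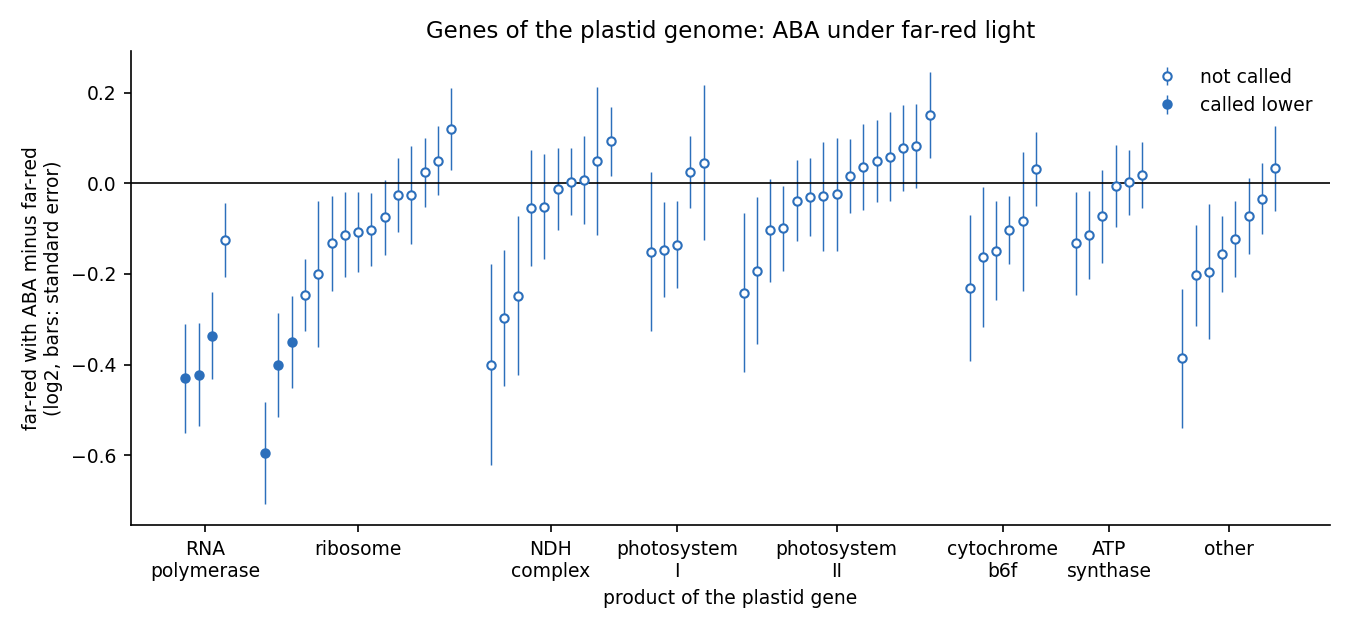
Difference between FRABA and FR in log2 units (vertical axis) of 69 plastid-encoded genes, grouped by their product and ordered by value within a group; bars are standard errors and filled points were called lower. The 6 filled points belong to the RNA polymerase (3 of 4) and the ribosome (3 of 15).

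Growth regulators fell in part. YUC2 and YUC4, flavin monooxygenases of auxin synthesis, were lower with ABA, the 2 called of 6 measured genes of auxin synthesis and transport (5.28% of all probe sets were lower). YUC6 (-0.17), PID2 (-0.18), YUC11 (-0.05) and WAG2 (0.01) were not called. YUC2 read 5.45, 5.41 and 5.57 in FR and 4.81, 5.10 and 4.92 in FRABA (-0.53 ± 0.10, 1.45-fold, adjusted p = 0.00334). YUC4 went from 3.70, 3.59 and 3.90, detected on 1 array, to 3.14, 3.31 and 3.19, detected on 0, at least 1.43-fold lower. Their white-light differences were -0.16 and -0.17, not called, with unadjusted interaction p-values of 0.0193 and 0.0203. GH3.3, which conjugates auxin to amino acids and is itself induced by auxin, fell by 0.66 ± 0.14, from 6.08, 6.49 and 5.94 to 5.64, 5.28 and 5.60. WES1, a relative in the same family, rose by 0.71 ± 0.12. These were the 2 called of 13 measured early auxin genes, 15.4% against 10.3% of all probe sets. Of 8 measured shade markers, YUC2 and GH3.3 fell and 0 rose, and the others ranged from -0.15 for IAA29 to 0.24 for BIM1. Expansins went both ways, 3 of 19 rising (EXPA16 by 1.29, EXLA1 by 1.04, EXLB1 by 0.94) and 2 falling (EXPA8 and EXPA15, the latter by 0.57).

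SPCH, the factor that starts the stomatal lineage, fell from 5.75, 5.85 and 5.72 to 5.22, 5.27 and 5.41 (-0.47 ± 0.09, 1.39-fold, adjusted p = 0.00331), and FMA, which ends it in guard cells, differed by -0.29 ± 0.09 (adjusted p = 0.042). The FMA call was lost without WLABA replicate 1 (0.0567), FR replicate 1 (0.125), FR replicate 2 (0.136), FRABA replicate 1 (0.154) and FRABA replicate 3 (0.0951), and also with median centring (0.0759), with only the 6 arrays compared (0.0869) and with a trended robust variance (0.0652). MUTE (0.22) and STOMAGEN (-0.05) were not called. AT1G22690, the only measured gene of 6 listed as guard-cell markers, fell from 10.00, 9.73 and 9.82 to 8.84, 8.80 and 8.96 (-0.98 ± 0.09, 1.98-fold, adjusted p = 7.04e-06). Its part, and that of the share of guard cells, in the values of SPCH and FMA was not tested. TRY, of the trichome and epidermis list, stood at -0.40 (adjusted p = 0.0524), and RCA at 0.02.

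Among 18 genes of cell division and DNA replication 16 had values below 0, with a median of -0.20. For all probe sets the median was -0.015 and 5.28% were called lower. TOP3A, ATSMC2, AUR1 and BUBR1 were called lower, by -0.42 to -0.27. None of these 4 calls held throughout: the count was 0 without WLABA replicate 2, FR replicate 2, FR replicate 3 or FRABA replicate 1, 1 without FR replicate 1 or FRABA replicate 2, and 2 without WL replicate 3 or WLABA replicate 1.

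Defence and calcium genes with falls included THI2.2, a thionin, from 8.77, 8.68 and 9.07 to 7.96, 8.09 and 8.0 (-0.82 ± 0.13, 1.77-fold, adjusted p = 0.00106). JMT, which methylates jasmonic acid, read 4.73, 4.85 and 4.75 against 4.34, 3.83 and 4.25 (-0.63 ± 0.12, adjusted p = 0.00399), with 0.17 in white light and an unadjusted interaction p of 0.000307 (adjusted p = 0.529). These were the 2 called of 19 jasmonate and defence markers, 10.5%, beside 5.28% of all probe sets called lower and 10.3% called either way. CML42 and CML30, calmodulin-like calcium sensors, fell by 0.86 ± 0.16 and 0.84 ± 0.11, the 2 called of 8. Of 9 U-box ubiquitin ligases, PUB22 (at least 1.76-fold lower, detected on 2 FR and 0 FRABA arrays) and PUB26 (-0.52 ± 0.09) fell, while PUB19 rose at least 2.32-fold, detected on 0 FR arrays and 1 FRABA array. UGT76C2, which glucosylates cytokinins, fell by 0.60 ± 0.13, whereas 6 of the 51 measured UDP-glycosyltransferases rose, 3 without FRABA replicate 2. Of the 51, 13.7% were called, near the 10.3% of all probe sets, and their median was 0.02.

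**Figure D5:**
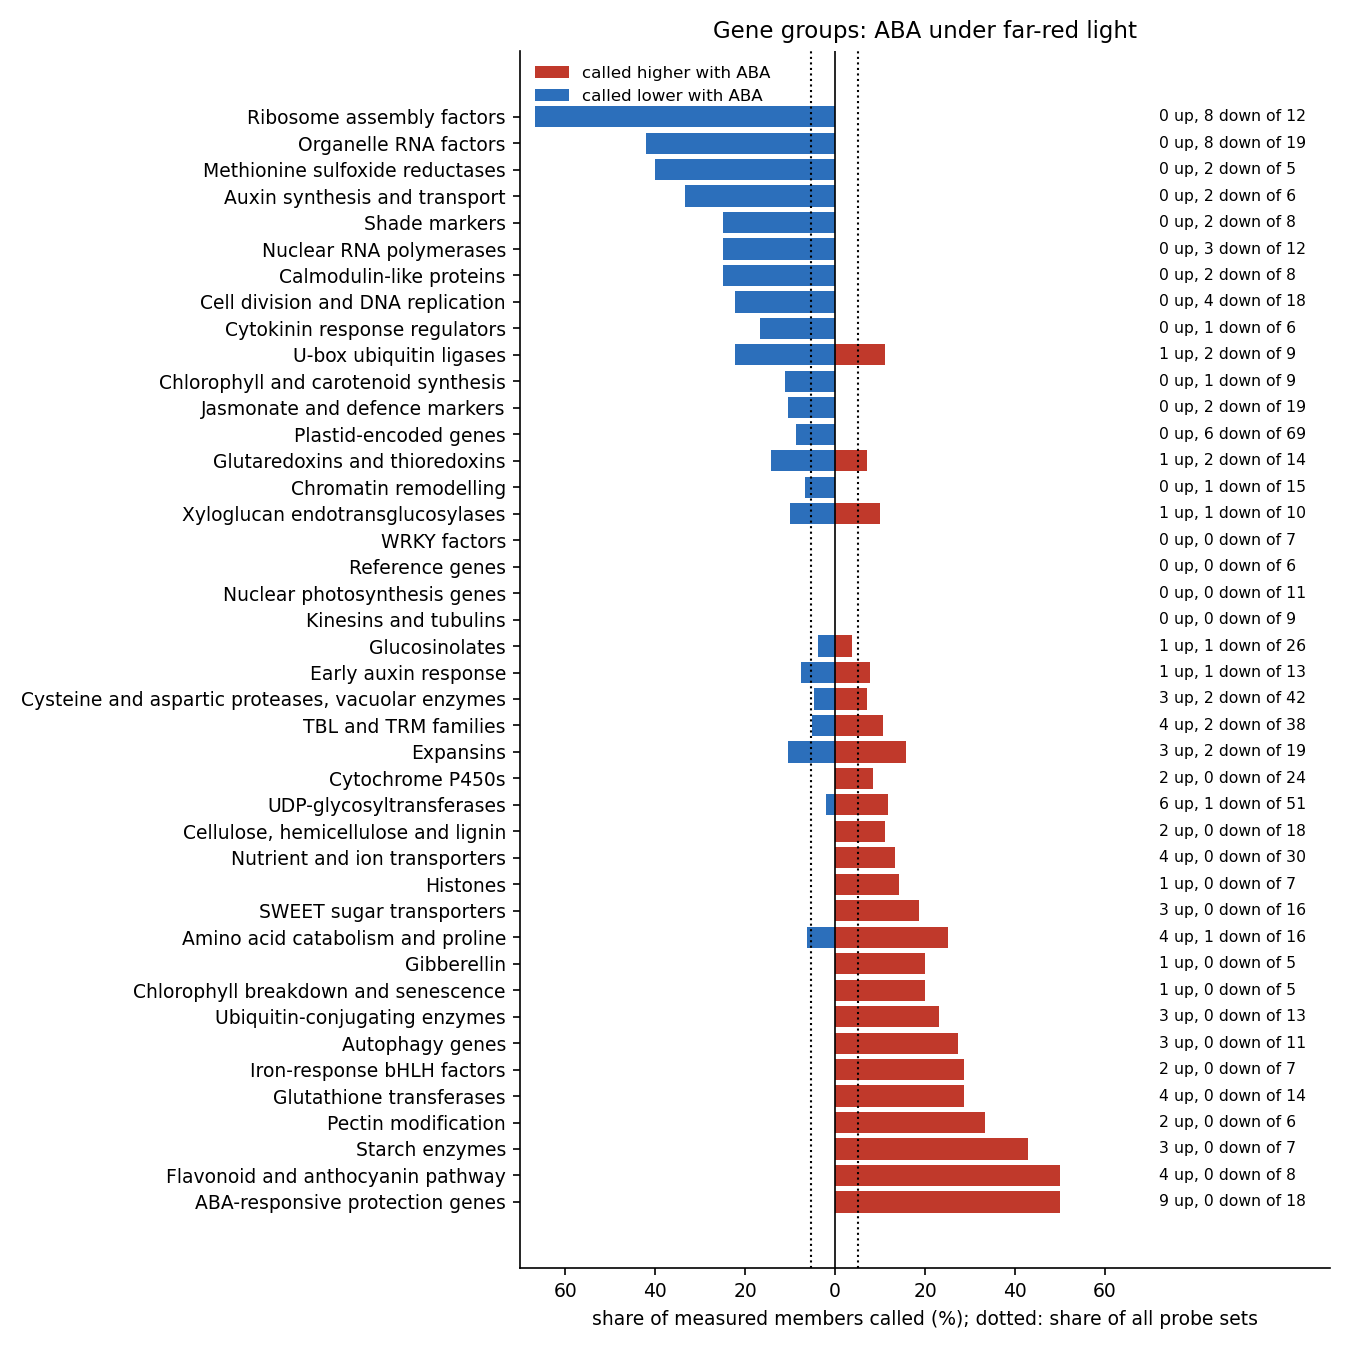
Share of the measured members of each gene group called higher (red, to the right) or lower (blue, to the left) with ABA under far-red light, for all groups with at least 5 measured members; dotted lines mark the shares over all probe sets, 5.06% higher and 5.28% lower. Ribosome assembly factors, a list extended after values were seen (8 of 12 lower), lie at one end. ABA-responsive protection genes (9 of 18 higher) and flavonoid and anthocyanin pathway genes (4 of 8 higher) lie at the other.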

How the data were processed

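The authors deposited log2 expression values per probe set from RMA (affy) and MAS5 detection calls for 12 one-colour Affymetrix arrays, per the submitters' processing notes; tool versions are not given there. RMA removes uniform shifts between arrays and compresses low values. Of 22810 probe sets 64 controls were left out. The platform table listed 13513 probe sets with 1 gene, 503 with several and 8730 not at all; 13436 matched RefSeq (TAIR10.1), which gave symbols. Differences came from limma 3.58.1 in R 4.3.3 (lmFit on 12 arrays, eBayes, Benjamini-Hochberg adjustment over 22746 probe sets, threshold 0.05, 8 residual and 7.21 prior degrees of freedom), which was tested on simulated data. A fold against a group with no present call is a lower bound. The number of arrays limits the precision. Groups came from the sample titles. Deviations from group means of same-numbered FR and FRABA arrays correlated at 0.124, 0.143 and 0.273. These values were not compared with those of arrays of unlike number, and the labels name no pairing. Whether the replicate numbers pair these samples is therefore not shown, and the main fit left them out. Gene groups and members were chosen with earlier results of these data known; 5 of 50 lists were added and 2 extended after values were seen. Named genes are the 15 largest non-overlapping called rises and falls and, per list, up to 4 called members each way. Promoter motifs were not analysed here.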

Additional observations from a re-analysis of the deposited data

Results flagged for a closer look

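AT3G57570 was the single probe set called in opposite directions by ABA in the 2 light conditions, and was singled out after its values were seen. It read 5.64, 5.84 and 5.67 in FR and 5.35, 5.42 and 5.43 in FRABA, a difference of -0.32 ± 0.08 (adjusted p = 0.0266), and 5.06, 5.02 and 4.89 in WL against 5.36, 5.40 and 5.27 in WLABA, a difference of 0.35 ± 0.08 (adjusted p = 0.0204). The groups did not overlap in either light. The interaction was -0.67 ± 0.12 with an unadjusted p of 5.04e-05 and an adjusted p of 0.4, so the difference did not pass the test. The far-red call was lost without FR replicate 2 (adjusted p = 0.121), FRABA replicate 1 (0.0879), FRABA replicate 2 (0.063) and FRABA replicate 3 (0.0505), with only the 6 arrays compared (0.0574) and with a trended robust variance (0.0633).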

How the results depend on the processing

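Counts and named genes of the far-red comparison were recomputed under 20 alternatives, and the white-light and interaction counts under all of these except the first: only the 6 arrays compared, median centring, quantile normalization, probe sets present on at least 3 arrays, a trended robust variance, array weights, a replicate block, the series' value table, and each of the 12 arrays left out. Of 231 named genes 126 kept their call in every one, 105 lost it in at least 1 and 0 reversed; 22 lost it with centring. With the replicate block, which pairs arrays by number, 2694 probe sets were called in place of 2352, and 5 named genes lost their call. Polymerase subunits called lower numbered 6 with the detection filter and 6 with the trended variance. Cell division genes called lower numbered 0 with only the 6 arrays, 1 with centring and 2 with quantile normalization. The interaction called 2 with the trended variance. When 1 array was left out, calls ran from 1518 to 2434 (higher 765 to 1181, lower 696 to 1253, at least 2-fold 148 to 170), white-light calls from 908 to 1510 and interaction calls from 0 to 2. The ranges were 8 to 10 for ABA-responsive protection genes, 7 to 9 for ribosome assembly, 1 to 5 for polymerases, 3 to 8 for organelle RNA factors, 1 to 6 for plastid genes and 0 to 4 for cell division. The cause of these shifts was not tested beyond the smaller number of arrays. Transcripts near the detection limit give bounds only.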
